A study of Mus musculus with 48 samples.

Results

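Chromatin accessibility was compared between tumour-infiltrating mouse CD8 T cells that carried a guide RNA against Zfp219 and cells that carried one against Dusp5, in aged hosts. The comparison used the 16 aged Zfp219 and Dusp5 libraries of the 48 in the series, 2 of each guide in each of 4 sorted cell states, by state and as the equally weighted mean of the 4 states. No control library entered it. A difference is therefore between the 2 guides, and whether the Zfp219 or the Dusp5 guide moved a peak cannot be told apart here.

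All cells were OT-1 CD8 T cells, whose receptor recognises an ovalbumin peptide, with the Cas9 nuclease and the CD45.1 marker. They were transduced with a lentivirus holding 1 guide and the ametrine reporter, sorted, and moved into hosts 1 day before the B16-OVA melanoma, which makes ovalbumin, was implanted. Ametrine-positive cells were sorted from the tumours 15 days after inoculation. Cells of separate mice were pooled into the replicates, and the pools are not tied to named mice. p-values therefore measure the spread between pools. The labels read Zfp219KO and Dusp5KO. Host age is given as aged or young, with no age in weeks in the sources used here. The states are Tprog (Slamf6+Tim-3-, progenitor exhausted), Ttran (Slamf6+Tim-3+, transitory and effector-like), Tterm (Slamf6-Tim-3+, terminally exhausted) and Ttad (Slamf6-Tim-3-, the age-associated dysfunctional state, sorted in aged hosts).

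ATAC-seq reads open DNA by the insertions of a transposase, and a peak's value is the number of reads in it. T cells that meet tumour antigen for long pass from a self-renewing progenitor to effector-like and terminally exhausted cells, and enhancers open and close along that path. Dusp5 is a nuclear phosphatase that acts on the kinase ERK, which lies downstream of the T cell receptor and drives AP-1 factors such as Fos and Jun. Zfp219 is a zinc-finger protein of the nucleus.

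The aged Zfp219 libraries held 9160914 to 16159054 reads in peaks (median 15474888.5) and the aged Dusp5 libraries 5638413 to 14913637 (median 11639565). The Zfp219 libraries were thus deeper as a group. In Tprog the order was the reverse on average, with 9160914 and 12792515 reads against 11495701 and 14722397 with Dusp5 guides. Replicates correlated across peaks with Pearson's r of 0.944 to 0.974 within groups and 0.891 to 0.967 between groups. The defining T cell markers were open: all 10 genes of that list had peaks, with summed values of 31295 to 34656 normalized reads in the Zfp219 libraries and 29676 to 31460 in the Dusp5 libraries. Of the melanoma markers, Dct, Slc45a2, Tyr and Tyrp1 had no peak, and the 9 peaks at the other 5 genes summed to 1000.5 to 1486 against 1028 to 1434 reads. The myeloid (6659.9 to 7591 against 6099.6 to 7874), B cell (1600.3 to 1936 against 1610.4 to 2020.4), CD4 and regulatory T cell (3781 to 4482 against 3709.9 to 4596), NK (6949 to 7548 against 6547 to 7602) and stromal (3398 to 4365 against 3299 to 4149) sums overlapped between guides. Adgre1, C1qa, C1qb, Csf1r, Lyz2, S100a8, Cd79a, Cd79b, Ms4a1, Foxp3, Col1a2 and Col3a1 had no peak.

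Values are normalized reads, and differences are log2 differences of (value + 1), Zfp219 minus Dusp5, so that a positive difference means more open with Zfp219 guides. Errors are standard errors (SE) over 8 against 8 libraries for the 4-state mean and 2 against 2 within a state. The threshold for a call was an adjusted p of 0.05 in limma, adjusted over all 53868 peaks. Each peak was named by the gene body it overlaps or by the nearest protein-coding gene within 100 kb, which does not show that it regulates that gene. Positions are on mm10.

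The targeted genes and the sorting markers were examined first. Accessibility does not read the small insertions and deletions that Cas9 leaves, so it does not check the edit. At Zfp219, 2 of 4 peaks were called higher in the Zfp219 libraries, beside 11.3% of all peaks. These 2 rose by 0.34 ± 0.11 inside the gene and by 0.15 ± 0.04 at the promoter. The promoter peak held 1036 to 1269 reads in the Zfp219 libraries and 937 to 1165 in the Dusp5 libraries, so the ranges overlapped. Neither call held in every alternative analysis, and the promoter call was lost with quantile normalization. The Dusp5 promoter peak differed by 0.09 ± 0.04 (adjusted p = 0.13). Of the 17 Dusp5 peaks 9 were called, 4 higher and 5 lower, beside 11.3% and 11.7% of all peaks. Of these 9, only the peak that starts at chr19:53490974 kept its call in every alternative analysis and without any 1 library. Slamf6 encodes a receptor used in the sort. Beside 11.7% of all peaks, 3 of its 6 peaks were called lower in the Zfp219 libraries. The strongest of those, chr1:171915612-171916427, lies 1031 bp from the gene and held 203, 311 and 496 reads (lowest, median, highest) with Zfp219 guides and 329, 488 and 542 with Dusp5 guides. The guides did not overlap within any of the 4 states there, and the difference was -0.52 ± 0.07 (adjusted p = 6.8e-08). The 5 peaks of Havcr2, which encodes Tim-3, differed by 0.04 to 0.11 with adjusted p from 0.11 to 0.89.

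In the mean of the 4 aged states 12402 of 53868 peaks were called, 6114 higher with Zfp219 guides (11.3% of all peaks) and 6288 lower (11.7%). Most differences were small. The median absolute difference of the called peaks was 0.39, and 199 rose and 627 fell by 2-fold or more. Those 2-fold peaks were weak, with median values of 21.8 reads for the rises and 21.2 for the falls, beside 91.7 over all peaks. At 1123 peaks (2.08%) both Zfp219 libraries lay above both Dusp5 libraries in every state, and at 1474 peaks (2.74%) they lay below. Reading depth moved with the guide, in the opposite direction in Tprog. With every library thinned to the smallest total, 8909 peaks were called, 8263 of them among those of the full data with the same direction.

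**Figure D1:**
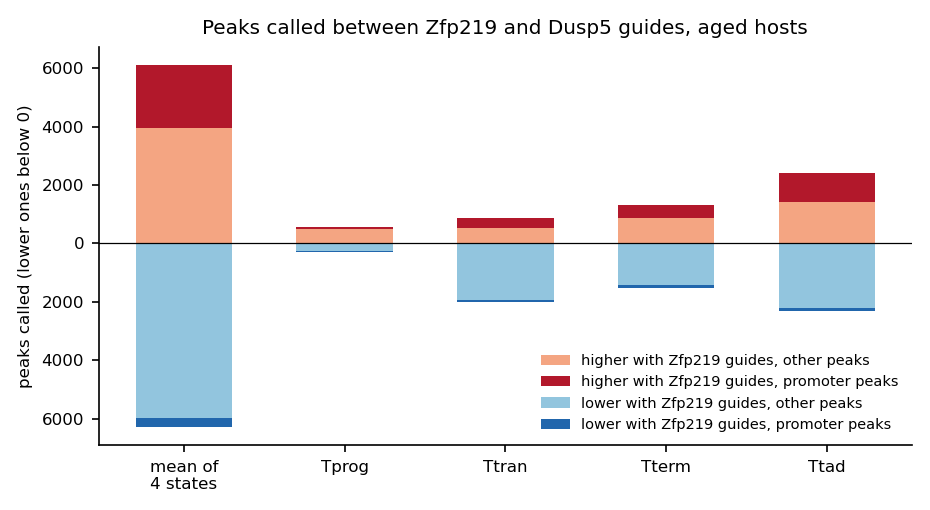
Numbers of peaks called higher (up) and lower (down) with Zfp219 than with Dusp5 guides in each aged state and in the 4-state mean (limma, adjusted p under 0.05, 53868 peaks), with promoter peaks in the darker shade. Tprog has the fewest calls, 833, and Ttad the most of the single states, 4706.

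Within states the counts were 554 higher (1.03%) and 279 lower (0.518%) in Tprog, 883 (1.64%) and 2015 (3.74%) in Ttran, 1329 (2.47%) and 1515 (2.81%) in Tterm, and 2407 (4.47%) and 2299 (4.27%) in Ttad. Falls outnumbered rises in Ttran, and rises outnumbered falls in Tprog. These counts rest on 2 libraries a side: without 1 of the compared libraries they dropped as low as 258 for Tprog, 844 for Ttran, 668 for Tterm and 1317 for Ttad. The balance of rises and falls depends on the scaling. With promoter and other peaks scaled apart, 61.4% of calls were rises in the 4-state mean (49.3% as deposited), 75.1% in Ttad (51.1%), 62.0% in Tterm (46.7%) and 45.7% in Ttran (30.5%). With cyclic loess the Ttad share was 41.0%. Of all peaks, 6338 were called in 1 state, 1538 in 2, 521 in 3 and 76 in all 4. Ttran, Tterm and Ttad shared directions. Of the peaks called lower, Ttran and Ttad shared 841 (41.7% of the Ttran and 36.6% of the Ttad set), and between any pair of these 3 states at most 1 peak was called in opposite directions. Tprog stood apart: of its 554 rises 36 were also rises in Tterm and 100 were falls there. Of 110 peaks that follow a peak on an unplaced scaffold, described below, 66 were called in Tprog and 95 in Tterm. Their part in the 100 was not tested. Across peaks the Tprog difference correlated with the other 3 at r of -0.01 to 0.11, and those 3 correlated among themselves at 0.35 to 0.41. These are descriptions over 53868 peaks of the same libraries.

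Promoter peaks and the other peaks differed in their median, in part along with peak strength, as given below. Of the 9253 peaks that hold a promoter window, 23.2% were higher and 3.37% lower with Zfp219 guides in the 4-state mean, with a median difference of 0.08. Of the other 44615 peaks, 8.90% were higher and 13.4% lower, with a median of -0.05. The split was present in Ttran (medians 0.10 and -0.05), Tterm (0.08 and -0.05) and Ttad (0.14 and -0.08) and near 0 in Tprog (-0.00 and 0.00). As a share of all reads in peaks, promoters held 40.99% to 41.32% in the 2 Zfp219 Ttad libraries and 37.65% to 38.79% in the 2 Dusp5 Ttad libraries. In Ttran the shares were 39.87% to 40.35% against 37.29% to 38.43%, and in Tterm 39.41% to 39.53% against 37.26% to 37.55%. The guides did not overlap in these 3 states, while in Tprog they did (39.96% to 40.14% against 39.85% to 40.24%). Over Tprog, Ttran and Tterm the medians were 0.06 for promoter and -0.04 for other peaks in aged hosts, and 0.01 and 0.00 in young hosts. The read share in young Ttran did not overlap either (37.90% to 38.48% with Zfp219 guides against 36.69% to 37.55%), while in young Tprog and Tterm it did.

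Peak strength followed the same order. In the weakest 10% of peaks the median difference was -0.20 in Ttran, -0.36 in Tterm and -0.32 in Ttad but 0.13 in Tprog, and in the strongest 10% it was 0.03, 0.05, 0.12 and 0.03. Promoters make up much of the strong end, with 2875 of 5387 peaks in the strongest 10% and 80 of 5387 in the weakest. Within the strongest 10%, promoter and other peaks had medians of 0.07 and -0.04 in Ttran and 0.08 and 0.01 in Tterm. In Ttad they were 0.16 and 0.07, and in Tprog 0.03 and 0.02. Strong peaks outside promoters thus did not fall on the median in Tterm or Ttad, but rose less than promoters. A library's share of reads in strong peaks also depends on how well the assay separates peaks from background, and the part of that in these shifts was not tested.

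**Figure D2:**
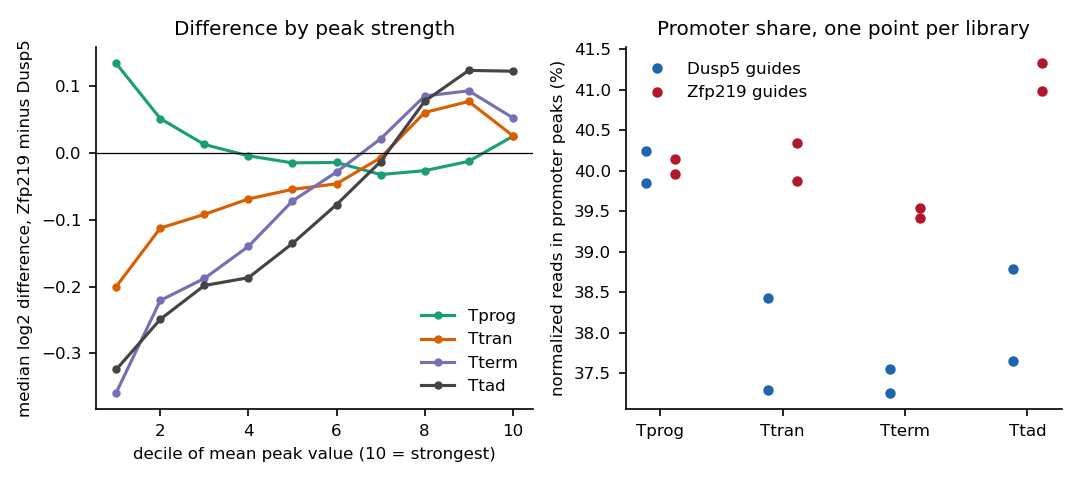
Median log2 difference (Zfp219 minus Dusp5) of peaks in 10 groups of rising mean value, by aged state, and beside it the percent of reads in promoter peaks, 1 point per library. The lines for Ttran, Tterm and Ttad run from below 0 in weak peaks to above 0 in strong ones, and the Tprog line starts above 0 at 0.13.

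The promoter windows of called peaks differed in base content. The sequences below, from RefSeq on GRCm38.p6, are the 250 bases before the start of 4 promoters described here, each on the minus strand and written in the gene's direction. Capitals mark matches to an AP-1 element (TGANTCA) or a CRE-like element (TGANNTCA), which Jun-containing dimers are known to bind. Both strands were searched, and the 2 motifs did not overlap one another in these windows. The inner Satb1 promoter (chr17:51826589-51826838) and the Gzma promoter (chr13:113100982-113101231) were more open with Zfp219 guides. The Jun promoter (chr4:95052223-95052472) and the inner promoter of Rcan1 (chr16:92400079-92400328), whose gene is known as a target of the calcium-driven factor NFAT, were less open.
Satb1 inner promoter: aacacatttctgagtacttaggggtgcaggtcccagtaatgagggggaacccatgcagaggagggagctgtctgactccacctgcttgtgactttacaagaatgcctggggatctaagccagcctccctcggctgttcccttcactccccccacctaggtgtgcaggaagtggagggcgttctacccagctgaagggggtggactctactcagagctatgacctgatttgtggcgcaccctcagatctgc
Gzma promoter: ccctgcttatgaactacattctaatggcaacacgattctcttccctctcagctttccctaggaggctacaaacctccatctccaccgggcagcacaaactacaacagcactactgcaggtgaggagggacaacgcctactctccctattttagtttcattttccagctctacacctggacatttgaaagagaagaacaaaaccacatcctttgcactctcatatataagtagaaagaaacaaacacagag
Jun promoter: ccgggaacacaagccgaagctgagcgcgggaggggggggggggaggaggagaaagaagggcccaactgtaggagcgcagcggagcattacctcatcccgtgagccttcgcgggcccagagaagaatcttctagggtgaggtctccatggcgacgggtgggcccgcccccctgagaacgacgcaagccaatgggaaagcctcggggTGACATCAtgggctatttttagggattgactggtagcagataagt
Rcan1 inner promoter: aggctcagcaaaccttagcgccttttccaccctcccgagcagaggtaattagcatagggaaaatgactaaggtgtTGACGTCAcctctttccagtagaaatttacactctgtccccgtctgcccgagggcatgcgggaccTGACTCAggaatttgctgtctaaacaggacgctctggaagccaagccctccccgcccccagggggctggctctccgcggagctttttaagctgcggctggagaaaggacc

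Jun holds TGACATCA beginning 45 bases before its start, and Rcan1 holds TGACGTCA at 175 and TGACTCA at 110 bases before its start. Satb1 and Gzma hold neither motif in these letters. The inner promoter of Pde4b, which fell (-0.78), holds neither of them as well. The inner promoter of Clasp2, which rose, holds TGATGTCA 51 bases before its start. The other Clasp2 promoter, which was not called (0.08), holds TGACGTCA 31 bases before its start. These single promoters were picked and show no rule. Over windows of 300 bases, TGANTCA was present in 10.7% of the 525 windows in peaks that fell, 4.34% of the 3201 in peaks that rose, 5.07% of the 9923 in peaks that were not called and 7.81% of all 32817 RefSeq windows. The CRE-like motif was present in 12.8%, 8.90%, 9.97% and 14.1%. The ETS motif CCGGAAG went the other way, with 5.71%, 20.7%, 17.6% and 8.86%, as did the GC box GGGCGG with 49.3%, 70.5%, 63.6% and 35.6%. The median share of G and C was 64.0% in windows that rose and 58.0% in windows that fell. Among larger changes the order of several of these turned or narrowed. The 52 windows in peaks that rose by 0.5 or more and the 169 in peaks that fell by 0.5 or more held medians of 50.7% and 56.7% G and C, the GC box in 28.8% and 49.7%, the ETS motif in 3.85% and 2.37%, and the CRE-like motif in 11.5% and 11.2%. The AP-1 motif kept its order, with 1.92% and 13.6%. A match is a run of letters and does not show binding.

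Gzma, which encodes the cytotoxic protease granzyme A, had 1 peak, over its promoter, with 162, 284 and 300 reads (lowest, median, highest of 8) with Zfp219 guides and 146, 167 and 228 with Dusp5 guides. The ranges overlapped across states, and the difference was 0.58 (limma, adjusted p = 6.7e-06). At the inner Satb1 promoter peak, chr17:51826256-51826958, the values were 66.8 and 88.3 with Zfp219 against 37.0 and 27.1 with Dusp5 guides in Tprog, 63.3 and 57.9 against 37.8 and 23.7 in Ttran, 45.7 and 63.5 against 21.2 and 44.3 in Tterm, and 71.2 and 50.3 against 24.9 and 25.1 in Ttad. Every Zfp219 library lay above every Dusp5 library. The difference was 1.06 ± 0.20 (adjusted p = 7.1e-05), and in the 3 states of young hosts it was 0.10. The age difference over those 3 states, 0.91, was not called (limma, adjusted p = 0.21). The main Satb1 promoter, with 456 to 598 reads against 401 to 535, differed by 0.24. The inner Rcan1 promoter held 24.5, 33.3 and 48.3 reads with Zfp219 guides and 39.6, 72.2 and 94.9 with Dusp5 guides, a difference of -0.92 (adjusted p = 3.6e-04), while its outer promoter differed by 0.12 (adjusted p = 0.17).

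Other promoters with large rises were an inner promoter of Clasp2, a microtubule-binding protein (1.19), Itgam (1.04), Ifit1bl1 (0.84) and Pde4a, a cyclic AMP phosphodiesterase (0.71). Large falls were at Hmcn2 (-1.39), the chemokine gene Cxcl2 (-1.29), Fads2 (-1.03) and Ckap4 (-0.96). These 8 were taken from the largest promoter differences after the values were seen.

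Genes of the progenitor programme (20 genes, 235 peaks) had 23 peaks higher with Zfp219 guides (9.79%) and 45 lower (19.1%), with a median difference of -0.04 beside -0.01 over all peaks. The falls lay mostly in Ttran (21 lower, 4 higher) and Ttad (20 lower, 9 higher). Xcl1, a chemokine of progenitor cells, had 11 of its 18 peaks lower, the strongest of them by 1.29 on the log2 scale (-1.29 ± 0.25). Ccr7, a lymph node homing receptor, had 7 of 11 lower. Id3, a repressor of E proteins, had 3 of 7 lower. Bach2 had 5 lower and 2 higher of 35, its falls near the 13.4% of all peaks outside promoters. Tcf7, the defining factor of the progenitor state, had 12 peaks, with a median difference of -0.07 and adjusted p from 0.057 to 0.94. The direction of the list depends on the scaling: with promoter and other peaks scaled apart, 44 progenitor peaks were higher and 30 lower, with a median of 0.03.

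Satb1, a chromatin organiser of T cells that is on the progenitor list, went the other way, with 4 of 9 peaks higher. At the peak inside the gene, chr17:51806114-51807184, Tprog held 144 and 69.0 reads with Zfp219 guides against 23.5 and 31.5 with Dusp5 guides, and Ttad 53.4 and 66.5 against 17.6 and 28.4. Tterm held 37.9 and 43.2 against 19.3 and 13.99, and Ttran, where the guides overlapped, 23.5 and 30.2 against 24.5 and 9.67. The difference was 1.3 ± 0.23 (adjusted p = 3.2e-05). Lef1, the partner of Tcf7, was mixed, with 4 peaks higher and 3 lower of 16, the largest a fall by 1.09 (-1.09 ± 0.25).

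A score of state made from other libraries was lower with Zfp219 guides. It was the mean log2 value of 4264 peaks that were called and at least 2-fold more open in Tprog than in Tterm in young Zfp219 and Dusp5 libraries, minus that of 3123 peaks more open in Tterm. Its group means with Zfp219 and Dusp5 guides were 1.419 and 1.501 in Tprog, -0.28 and -0.00 in Ttran, -0.88 and -0.54 in Tterm, and 0.04 and 0.52 in Ttad. In every state both Zfp219 libraries scored below both Dusp5 libraries. The mean difference over states was -0.30, with an exact two-sided permutation p = 0.00154 over 1296 arrangements within states, the smallest they can give. Of the 4264 peaks of the progenitor side 1170 (27.4%) were called lower and 97 (2.27%) higher, with a median of -0.29. The 3123 peaks of the terminal side had 308 (9.86%) lower and 342 (11%) higher, with a median of 0.01. Of all peaks 11.7% were called lower and 11.3% higher in the 4-state mean. By state the progenitor-side medians were -0.47 in Ttad, -0.36 in Ttran, -0.31 in Tterm and -0.04 in Tprog, and the terminal-side medians 0.02, -0.06, -0.04 and 0.11. In Tprog, then, the terminal side differed more. Of the progenitor side 90 peaks (2.11%) were called higher there and 14 (0.328%) lower, beside 1.03% and 0.518% of all peaks. Of 110 peaks that follow a peak on an unplaced scaffold, described below, 66 were called in Tprog. Their part in the score and in these counts was not tested. The cells within a sorted gate can differ in makeup, and less accessibility per cell and fewer cells of a kind cannot be told apart in bulk libraries.

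**Figure D3:**
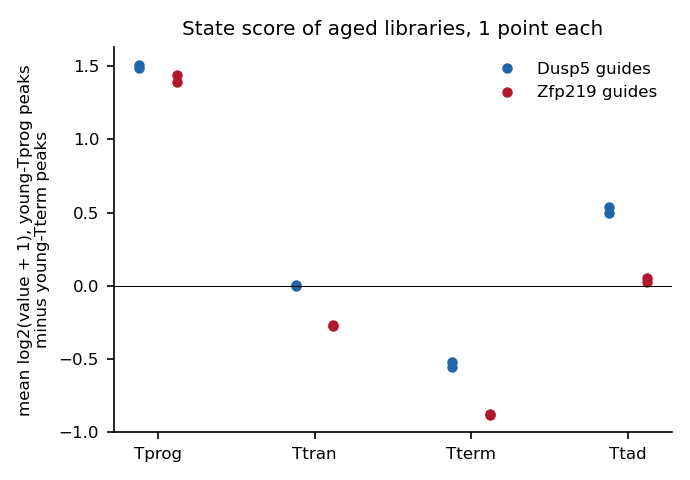
State score of each aged library, with 1 point per library and the states on the horizontal axis. Zfp219 points lie below Dusp5 points in all 4 states, by 0.08 in Tprog and by 0.48 in Ttad on the means.

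Effector genes (24 genes, 181 peaks) had 38 peaks higher (21%) and 16 lower (8.84%), with a median of 0.10, and rises outnumbered falls under the 4 other scalings tried. The peak 10321 bp from Ccl5, a chemokine of effector and memory cells, held 121, 176 and 278 reads with Zfp219 guides and 52.7, 123 and 179 with Dusp5 guides. It did not overlap within any state and differed by 0.69 ± 0.11 (adjusted p = 4.6e-06). A peak in Zeb2, a repressor of late effector cells, differed by 0.67 ± 0.17. Peaks at the NK receptor gene Klrk1 (0.86 ± 0.25) and the T-box gene Eomes (0.80 ± 0.23) were called too, but Klrk1 was 0.56 without Dusp5 Tterm replicate 2 (adjusted p = 0.056) and 0.18 without the Tterm libraries (adjusted p = 0.67). Eomes was 0.54 on thinned reads (adjusted p = 0.18). Gzmk, another granzyme gene, had 2 of 4 peaks higher, and Prf1, which encodes perforin, had 6 peaks with a median of -0.00 and adjusted p of at least 0.11. Of the myeloid marker peaks 9 of 45 were higher and 5 lower, of the NK marker peaks 5 of 30 higher and 4 lower, and of the B cell marker peaks 3 of 14 lower, with a Ttad median of -0.45 for the last. The part of such cells in these differences was not tested.

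Exhaustion genes (20 genes, 199 peaks) had 29 higher (14.6%) and 27 lower (13.6%) peaks, with a median of 0.01. Single genes diverged. Entpd1, which encodes the ATP-degrading enzyme CD39, had 7 peaks higher and 1 lower of 13. At chr19:40684115-40684389, inside the gene, Tprog held 58.3 and 81.2 reads with Zfp219 guides against 15.7 and 26.3 with Dusp5 guides, Ttran 127 and 119 against 91.2 and 50.1, Tterm 146 and 171 against 85.9 and 69.9, and Ttad 115 and 119 against 39.6 and 91.9. The guides did not overlap in any state, and the difference was 1.13 ± 0.16 (adjusted p = 6.6e-07). Tox, the master factor of exhaustion, had 4 of 27 peaks called, all lower. That count is near the 13.4% called lower among all peaks outside promoters. The strongest fall, at chr4:6934488-6935792 inside the gene, was -0.68 ± 0.09 (adjusted p = 1.7e-07), with 294 and 292 against 314 and 308 reads in Tprog and 154 and 137 against 303 and 286 in Ttad. Pdcd1, which encodes PD-1, had 1 peak higher and 3 lower of 9, and Prdm1, a repressor of terminal cells, had 5 higher of 22.

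**Figure D4:**
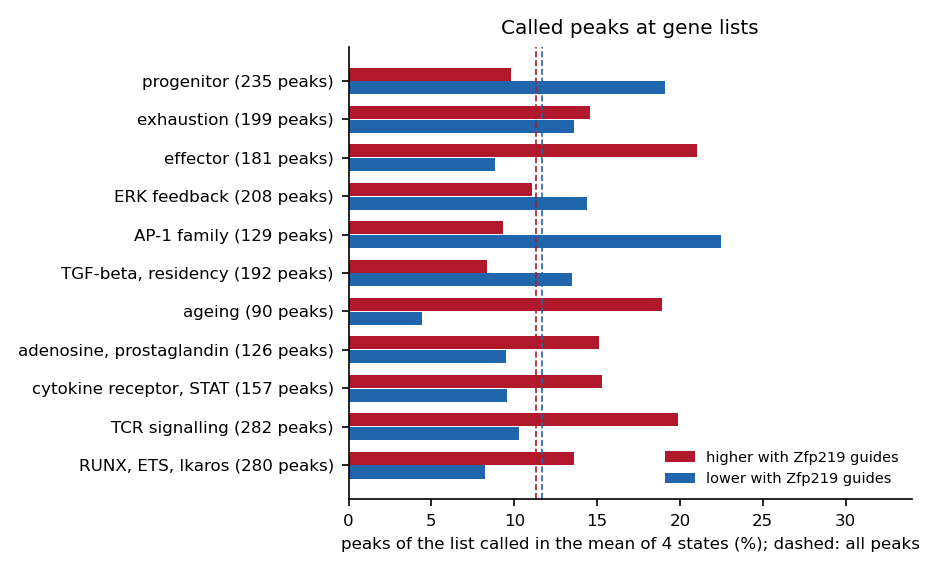
Percent of each gene list's peaks called higher (red) and lower (blue) with Zfp219 guides in the 4-state mean, with dashed lines at the 11.3% and 11.7% of all peaks. Effector, T cell receptor and ageing genes lean to rises and AP-1 and progenitor genes to falls.

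AP-1 family genes (16 genes, 129 peaks) had 12 peaks higher (9.30%) and 29 lower (22.5%), with a median of -0.06. Outside promoters the count was 7 higher and 26 lower of 117 (5.98% and 22.2%, beside 8.90% and 13.4% of all such peaks). Falls outnumbered rises under all 5 scalings, although with promoters scaled apart the count was 16 higher and 22 lower and the median 0.02. The falls lay at 8 of the 16 genes. Jun, an AP-1 subunit, had 6 of 8 peaks lower, Batf3, a partner of Jun, 6 of 9, and Fosb, a Fos-family subunit, 5 of 6. Batf and Fos had 8 and 10 peaks with medians of 0.04 and -0.07 and adjusted p of at least 0.099 and 0.062.

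Around Jun, the called falls were the promoter (-0.12 ± 0.03) and peaks 12159 bp (-0.74 ± 0.07), 44555 bp (-1.36 ± 0.23), 47556 bp (-0.68 ± 0.10), 53146 bp (-0.34 ± 0.06) and 75593 bp (-1.34 ± 0.17) from the gene. The farthest of these, chr4:95127815-95128559, held 45.5 and 49.7 reads with Zfp219 guides against 83.0 and 92.8 with Dusp5 guides in Tprog, 46.9 and 35.9 against 122 and 134 in Ttran, 31.0 and 45.6 against 107 and 81.6 in Tterm, and 21.2 and 44.3 against 83.5 and 107 in Ttad. Every Zfp219 library lay below every Dusp5 library (adjusted p = 2.6e-08). The peak 44555 bp away held 61.1 and 78.2 against 131 and 114 in Tprog and 11.9 and 15.3 against 54.2 and 56.8 in Ttad. The remaining 2 Jun peaks, with -0.59 and -0.72, were weak and were not called. At Batf3 the peak chr1:191099893-191100864, inside the gene, held 153, 229 and 338 reads with Zfp219 guides and 278, 358 and 570 with Dusp5 guides, a difference of -0.78 ± 0.08 (adjusted p = 3.4e-11) with no overlap in any state. A peak 47013 bp from Atf3, a stress-induced relative, fell by 0.85 (-0.85 ± 0.15).

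**Figure D5:**
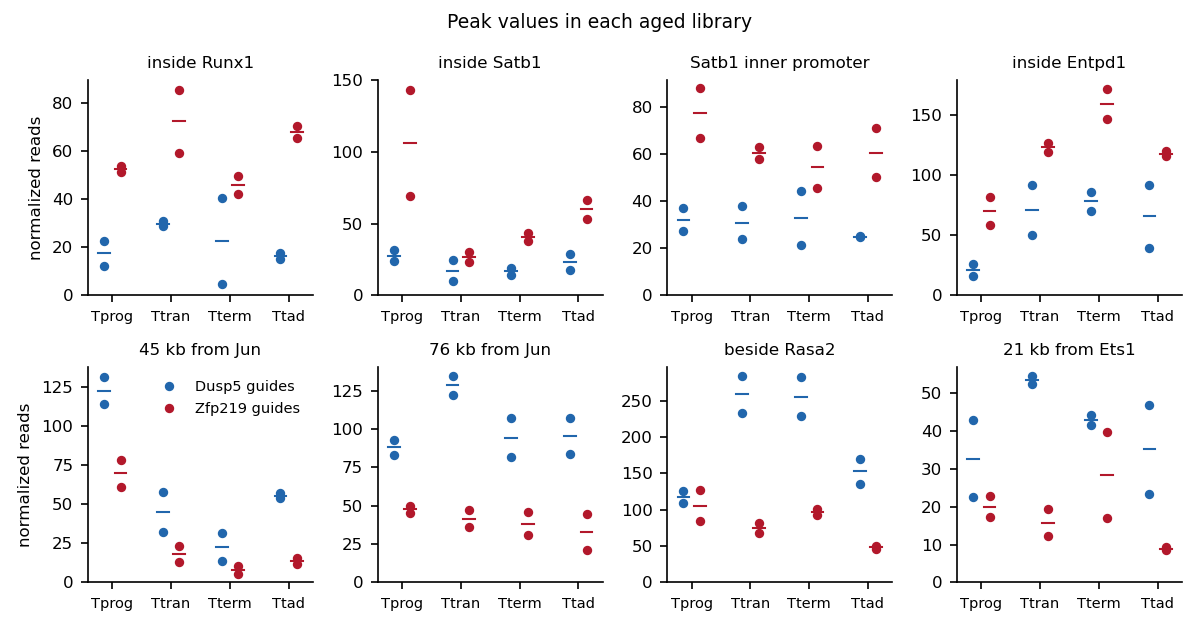
Normalized reads of 8 peaks in each aged library, 1 point per library with the group mean as a bar. The upper peaks, at Runx1, Satb1 and Entpd1, are higher with Zfp219 guides, and the lower peaks, at Jun, Rasa2 and Ets1, are higher with Dusp5 guides.

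Feedback genes of the ERK pathway (28 genes, 208 peaks) had 23 higher (11.1%) and 30 lower (14.4%) peaks, with a median of -0.02. Rasa2, a RAS GTPase-activating protein that restrains T cell receptor signals, had the clearest fall, 3604 bp from the gene at chr9:96534679-96535696. It held 68.4 and 81.6 reads with Zfp219 guides against 234 and 284 with Dusp5 guides in Ttran, 100.8 and 92.8 against 282 and 228 in Tterm, and 45.8 and 50.3 against 170 and 135 in Ttad, while in Tprog the 83.9 and 127 overlapped 109 and 126. The mean difference was -1.24 ± 0.12 (adjusted p = 1.8e-11). Dusp10, a phosphatase of the kinases JNK and p38, had 4 of 11 peaks lower, and a peak 97289 bp from Spred1, an inhibitor of RAS signalling, fell by 1.29 (-1.29 ± 0.20). With promoters scaled apart the list had 34 higher and 20 lower peaks, so its direction depends on the scaling.

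T cell receptor signalling genes (24 genes, 282 peaks) had 56 higher (19.9%) and 29 lower (10.3%) peaks, with a median of 0.08. Rises were at Ptpn2, a phosphatase that limits cytokine and receptor signals (0.97 ± 0.26), and Dgkz, a diacylglycerol kinase (0.88 ± 0.28, lost without Dusp5 Ttad replicate 2). A peak at Nfatc2, a calcium-driven factor, fell (-0.89 ± 0.19), and in Ttran it held 19.4 and 21.2 against 84.5 and 102 reads. A peak at Ubash3b, which encodes a phosphatase that dampens receptor signals, fell too (-0.86 ± 0.23). Of the 34 Ubash3b peaks 6 were called higher and 6 lower. Cd3e, which encodes a signalling subunit of the T cell receptor complex, had 2 of 5 peaks higher.

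Cytokine receptor and STAT genes (21 genes, 157 peaks) had 24 higher (15.3%) and 15 lower (9.55%) peaks. Ifngr1, a subunit of the interferon-gamma receptor, had 7 of 17 peaks higher. The one 69185 bp away, chr10:19521820-19522764, held 34.1, 46.9 and 69.2 reads with Zfp219 guides and 9.63, 20.6 and 32.5 with Dusp5 guides. No Zfp219 library was as low as any Dusp5 library, and the difference was 1.31 ± 0.23 (adjusted p = 3.3e-05). A peak in Stat4, which carries interleukin-12 signals, fell by 1.10 (-1.10 ± 0.29) but was lost on thinned reads (adjusted p = 0.052). Socs3, a brake on STAT signals, had a fall of 0.93 and a rise of 0.80, and neither call held throughout. Without Zfp219 Tprog replicate 1 the fall was -0.60 (adjusted p = 0.054), and without Dusp5 Ttran replicate 1 the rise was 0.49 (adjusted p = 0.15).

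RUNX, ETS and Ikaros factors (19 genes, 280 peaks) had 38 higher (13.6%) and 23 lower (8.21%) peaks. Runx1, a factor of early T cell and activation enhancers, had 9 of 26 peaks higher and Ikzf1, which encodes Ikaros, 6 of 18. At the Runx1 peak chr16:92641103-92641471, inside the gene, the 2 Zfp219 and 2 Dusp5 libraries held 51.2 and 53.8 against 12.3 and 22.8 reads in Tprog, 59.2 and 85.6 against 28.9 and 30.8 in Ttran, 42.2 and 49.7 against 40.5 and 4.66 in Tterm, and 70.4 and 65.6 against 17.6 and 15.04 in Ttad. The lowest Zfp219 library was above the highest Dusp5 library, and the difference was 1.61 ± 0.26 (adjusted p = 4.1e-06). Runx3, the main RUNX factor of CD8 T cells, had 3 of 23 peaks called, all lower and by 0.20 or less, beside 11.7% of all peaks. A peak 21152 bp from Ets1 fell by 1.21 (-1.21 ± 0.25) and one 19591 bp from Ets2 by 1.01 (-1.01 ± 0.24), both of them ETS factors.

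TGF-beta and residency genes (19 genes, 192 peaks) had 16 higher (8.33%) and 26 lower (13.5%) peaks. These shares are near the 8.90% and 13.4% of all peaks outside promoters. With promoters scaled apart the counts were 35 and 15. Smad3, which carries TGF-beta signals, rose at a peak 18796 bp away by 1.29 ± 0.23, with 40.9, 55.4 and 79.1 against 8.36, 25.3 and 43.4 reads. Itgb1, the beta-1 integrin, fell at chr8:128699643-128700734 by 1.21 (-1.21 ± 0.15, adjusted p = 2.3e-08), with 16.4 and 16.3 against 62.7 and 74.6 reads in Tterm. Genes of cell-cycle arrest and ageing (16 genes, 90 peaks) had 17 higher (18.9%) and 4 lower (4.44%) peaks. Their largest called differences were 0.89 ± 0.24 near Sirt1, a deacetylase, 0.73 ± 0.17 in the retinoblastoma gene Rb1, -0.53 ± 0.13 in Sesn1, a stress-response gene, and -0.74 ± 0.25 near Cdkn2a, the last lost with quantile normalization. Adenosine and prostaglandin genes (13 genes, 126 peaks) had 19 higher (15.1%) and 12 lower (9.52%) peaks. Besides Entpd1, they included falls at the cyclic AMP phosphodiesterases Pde4b (an inner promoter, -0.78 ± 0.21) and Pde4d (-0.77 ± 0.18). Both genes were mixed, with 2 higher and 4 lower of 30 peaks at Pde4b and 4 higher and 2 lower of 34 at Pde4d.

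The largest differences over all peaks lay at weak peaks outside promoters. Among peaks with at least 20 reads on average and no overlap in any state, the 12 largest rises were at Lrrc28 (2.04), Cfap74 (1.82), Rbm44 (1.77), D430041D05Rik (1.77), Runx1, Atxn2l, Adk, Zfp652, Ogdh, Pip4k2b, Srpk1 and Lrrk1 (1.37). Pip4k2b, a kinase of phosphatidylinositol phosphates, had the highest mean value of these 12, with 131, 229 and 322 against 35.9, 83.5 and 150 reads and a difference of 1.41 ± 0.12 (adjusted p = 4.1e-13). The 12 largest falls were near Ntng1 (-2.31), in Car8 (-2.18), at chr3:110399288-110399730 with no gene within 100 kb (-2.16), near Galntl6, Zfx and Trank1, in Lrba, near Rai14, in Dnajc13, near Mrgpra2b, in Tlx1 and at chr4:47846591-47847482 (-1.56). At Car8, a member of the carbonic anhydrase family, the libraries held 12.2, 14.9 and 35.0 against 50.1, 92.4 and 149 reads. All 24 kept their call without any 1 of the 16 libraries.

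Whether the difference between guides varied with state was tested directly. An F test of equal differences called 990 peaks (1.84%). The 6 with the smallest p had 1 shared profile, and none holds a promoter. The strongest, Un_JH584304:68552-114407 on an unplaced scaffold, held 125524 and 129531 reads with Zfp219 guides against 67556 and 63154 with Dusp5 guides in Tprog, but 89662 and 87663 against 242780 and 241557 in Tterm. In Ttad it held 97658 and 95369 against 195840 and 204245, and in Ttran 90221 and 88233 against 136621 and 124234. It took 0.49% to 1.86% of all reads in peaks. Its 2 replicates agreed closely in every group, and 110 peaks followed it across the 16 libraries at r above 0.9. Those 110 made up 96 of the 990 peaks. Reads of repeated sequence can pile up on such scaffolds, and how they were placed in these libraries was not tested. Of the other 894 peaks the difference was highest in Tprog at 512 and lowest in Tprog at 293.

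A contrast of the Tprog difference with the mean of the other 3, added after the data were seen, called 1890 peaks (3.51%), 1090 higher in Tprog (2.02%) and 800 lower (1.49%), and 1783 without the scaffold-like peaks. Its share higher was 57.7%, and 70.3% with cyclic loess or 45% with promoters scaled apart. For Ttad the same contrast called 27 peaks (0.0501%), 8 higher (0.0149%) and 19 lower (0.0353%), 14 of the latter scaffold-like. At an unadjusted p under 0.05 it held 4857 peaks. Its share higher was 29.6%, and 84.7% of 144 calls with promoters scaled apart. The promoter of Pik3c2b, a phosphoinositide 3-kinase, was 1 of the 8: it held 291 and 246 reads with Zfp219 guides against 164 and 129 with Dusp5 guides in Ttad, and 192 to 254 against 198 to 256 in the other states. That difference of differences was 0.98 ± 0.21 (adjusted p = 0.048), and on thinned reads it was 0.93 (adjusted p = 0.20). The call was also lost with library quality weights, with the replicate block and without any 1 of 12 of the 16 libraries (adjusted p up to 0.45).

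The change of a single state with the smallest p lay inside Thy1, which encodes the T cell surface protein CD90. At chr9:44046603-44047436 the 2 Zfp219 Ttran libraries held 3158 and 3153 reads and the 2 Dusp5 Ttran libraries 193 and 266. The peak held 567 and 668 against 208 and 172 reads in Ttad, 191 and 219.3 against 177 and 222 in Tprog, and 135 and 125 against 129 and 117 in Tterm. The Ttran difference was 3.79 ± 0.16 (adjusted p = 3.0e-26). In young hosts the peak ranged from 148 to 223 reads in Zfp219 and from 495 to 593 in Dusp5 Ttran libraries, in the opposite order. Of the 14 Thy1 peaks 2 were called higher in the 4-state mean, with a median difference of 0.09. Thy1 is on the T cell marker list, so this peak counts in the marker sums above. Other called peaks with large differences that held without any 1 library were near Esm1 in Tprog (37.0 and 58.9 against 0 and 4.38 reads), in Lipm in Ttran (0 and 0.816 against 13.3 and 10.5), near Efcab10 in Tterm (1.72 and 6.51 against 57.0 and 48.9) and in Zfp469 in Ttad (11.9 and 11.1 against 64.5 and 115). Values near 0 make fold changes of such peaks depend on the added 1.

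The same comparison in young hosts differed. Over Tprog, Ttran and Tterm, 6049 peaks were called in aged hosts (2947 higher, 3102 lower) and 3981 in young hosts (1360 higher, 2621 lower). The same direction was called in both at 935 peaks, 15.5% of the aged and 23.5% of the young set, and opposite directions at 117. Across all peaks the aged and young differences correlated at r = 0.17, as a description over 53868 peaks. A direct test of the age difference called 1983 peaks (3.68%), 1071 more positive in aged hosts (1.99%) and 912 more negative (1.69%). At 1622 of them the 2 ages had opposite signs. The test picks peaks where the ages differ, which favours opposite signs, so that count does not measure how often the direction reversed. The share more positive was 54.0%, and 76% with promoters scaled apart. Per the file headers, the libraries' sample numbers start anew in each age. Whether the ages were sequenced together is not given in the sources used here, and host age and any such batch cannot be told apart.

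Several of the loci above were among them. At Jun 6 of 8 peaks had a more negative difference in aged hosts, by 0.29 at the promoter and by 1.83 at most, and the Jun promoter itself was higher with Zfp219 guides in young hosts (0.16, adjusted p = 5.7e-04). Beside the 1.99% and 1.69% of all peaks, 8 of the 129 AP-1 peaks were called, each more negative in aged hosts. The 6 Jun peaks are among these 8, so the count rests mostly on 1 locus. Of the 181 effector peaks 11 were called, each more positive. Other lists leaned the same way as the effector list: 12 of 280 RUNX, ETS and Ikaros peaks and 9 of 157 cytokine receptor and STAT peaks were called, each more positive. T cell receptor genes had 10 more positive and 1 more negative, and exhaustion genes 10 and 2. The Gzma promoter differed by -0.18 in young hosts, and its age difference was 0.68 (adjusted p = 0.0013). The Entpd1 peak differed by -0.09 in young hosts and its age difference was 1.29 (adjusted p = 3.7e-04). The Nfia peak chr4:97963482-97964485 held 19.6, 24.6 and 56.9 against 55.6, 91.2 and 137 reads in aged hosts, while in young Tprog it held 113 to 138 with Zfp219 and 74.6 to 92.01 with Dusp5 guides. Its age difference was -2.02 ± 0.29 (adjusted p = 1.3e-06). Nfia, a nuclear factor I gene, was named for the size of that difference.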

How the data were processed

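ATAC-seq libraries of sorted CD8 T cells were compared at 53868 peaks. The authors deposited a table of normalized signal, reads per peak divided by a size factor per library, on mm10. In the 16 aged libraries 100% of values were, within 0.02, a whole number of reads times a constant per library. The submitters' processing notes name Bowtie2 2.2.9, Picard 2.8.0, MACS2 2.1.1, SAMtools 1.3.1 and DESeq2 1.28.1, without their roles.

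Log2(value + 1) was fitted with limma 3.58.1 (R 4.3.3) with a mean per group and a trend in the variance, over 16 libraries in 8 groups of 2, which leaves 8 residual degrees of freedom. p-values were adjusted by Benjamini-Hochberg over all peaks. Host age was tested over 32 libraries in 14 groups. Genes, starts and promoter windows (250 bases before to 50 after a start) came from RefSeq on GRCm38.p6, and 51108 peaks had a gene within 100 kb.

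Peaks named for the 4-state mean were called, averaged 20 reads or more, did not overlap between guides in any state, and had the 12 largest rises or falls. Within a state 4 and 4 were taken, for the state test the 6 smallest p, for the Ttad and age contrasts 5 and 5, and for each gene list the 4 largest called differences, with all peaks of the targets and sort markers. Members and lists were chosen with earlier results of these data known. Alternatives were other scalings, pseudocounts, filters and fits, edgeR 4.0.16 on whole reads, reads thinned to the smallest total, and leaving out each library. The fit was tested on simulated data. 2 genes that the naming rules or lists hold are not reported here. Same-numbered replicates did not deviate together (r from -0.015 to 0.015 over 28 pairs).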

Additional observations from a re-analysis of the deposited data

Results flagged for a closer look

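The difference between guides varied with state at 990 peaks, with Tprog against the other 3 states at 1890 and with Ttad against the other 3 at 27, and with host age at 1983, each by a direct test in limma.

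The largest Ttad contrasts were 3.45 near 1700017B05Rik, 0.98 at Pik3c2b, 0.87 at Cdyl and 0.67 at Crybg3, where the difference was more positive in Ttad. They were -1.67 at chr1:190300255-190303901, -1.60 near Smgc and -1.48 at chr3:6297678-6307345, where it was more negative. At 2 peaks on unplaced scaffolds they were -1.28 and -1.27. The more positive calls named here, in the order given, were lost without any 1 of 7, 12, 14 and 8 of the 16 libraries.

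The largest contrasts between host ages were 2.797 at Rbm44, 2.50 at chr12:70720479-70720991, 2.29 near Caap1, 1.98 at St6galnac3 and 1.86 near Traf3ip2, more positive in aged hosts. They were -2.33 near Ntng1, -2.18 at chr3:110399288-110399730, -2.18 at Hapln1, -2.15 at Dclk1 and -2.02 at Nfia, more negative in aged hosts.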

How the results depend on the processing

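Of 122 alternative values of the main results 105 stayed within 1.5 times or kept their call. A total within 1.5 times can hold other peaks. Of the 12402 calls of the 4-state mean, 8283 were kept with promoter and other peaks scaled apart and 8826 with quantile normalization. No peak called both in the main and in an alternative run had opposite directions. Calls that were lost were not compared for direction. Of 131 named called peaks 80 kept their call in every alternative and leave-out, and 0 turned direction. Calls within a state were less stable: 2 of 8 named Tprog peaks, 5 of 8 in Ttran, 3 of 8 in Tterm, 3 of 8 in Ttad and 2 of 10 of the Ttad contrast were kept throughout. With 1 value per group the 4-state mean called 4343 peaks (39.7% higher, against 49.3%). On reads thinned to the smallest total the counts were 452 in Tprog, 1694 in Ttran, 1482 in Tterm, 2697 in Ttad, 473 for state, 14 for the Ttad contrast (0% higher, against 29.6%) and 1044 for the Tprog contrast. Library quality weights gave 4713 in Ttran, and fits of the 4 compared libraries alone gave 1439 in Tterm and 3060 in Ttad, and 56.1% higher in Tprog against 66.5%. All 48 libraries in the fit gave 62 for the Ttad contrast (59.7% higher).

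Added after seeing the data were cyclic loess, promoter and other peaks scaled apart, the Tprog contrast and the analysis without Tterm libraries. Scaled apart, 1655 peaks were called for state, 144 for the Ttad contrast (84.7% higher) and 3434 for host age (76% higher, against 54.0%). The share higher became 61.4% in the 4-state mean, 45.7% in Ttran (from 30.5%), 62.0% in Tterm (from 46.7%) and 75.1% in Ttad (from 51.1%), and 41.0% in Ttad with loess. For the Tprog contrast it was 45% scaled apart and 70.3% with loess, against 57.7%, and for the Ttad contrast 16% with loess. At the targeted genes 7 peaks were called with quantile normalization and 7 with loess, against 11. The cause of these changes was not tested.

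Leaving out each library gave 9948 to 12579 calls in the 4-state mean, 258 to 1108 in Tprog, 844 to 3569 in Ttran, 668 to 3563 in Tterm, 1317 to 5747 in Ttad, 368 to 2134 for state, 13 to 116 for the Ttad contrast, 712 to 2367 for the Tprog contrast, 1416 to 2301 for host age, 7 to 11 at the targets, and a score of -0.302 to -0.290. The lowest state counts came without Zfp219 Tprog replicate 1, Dusp5 Ttran replicate 1, Zfp219 Tterm replicate 1 and Zfp219 Ttad replicate 2.

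With the replicate number as a block, the counts were 12375, 819, 2905, 2824, 4672, 957, 24, 1861 and 1926 in the same order up to host age, and 11 at the targets. The numbers do not pair the samples. edgeR on whole reads called 13350 peaks in the 4-state mean with TMM factors and 13170 with the deposited scaling. edgeR and thinning were not run for host age.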

Other observations

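Promoters of genes induced by interferon, chosen after their values were seen, are given as a description. Of 14 promoter peaks at 13 such genes 11 were called higher in the 4-state mean, by 0.18 to 0.84, with a median of 0.51 over the 14, beside 23.2% of all promoter peaks called higher and 3.37% lower. Cd6, which encodes a T cell surface receptor and was also picked after its values were seen, had 8 of its 13 peaks called lower, beside 11.7% of all peaks. Since both were picked on these values, the counts support nothing about them.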
